A study of Oryza sativa Japonica Group with 4 samples.

Results

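Among the rice genes that carry no name in the gene table, 41 had intensities at least 3-fold higher in ammonium nitrate-treated roots than in N-starved roots within both biological replicates. They were read by 42 probe sets out of 19244 probe sets of unnamed genes (0.218%) and 57194 rice probe sets in all. A probe set is the group of short probes that reads a transcript on the Affymetrix Rice Genome Array, and its intensity is its brightness. An unnamed gene is one whose symbol and synonyms are only placeholder, locus or clone identifiers. To be chosen, a probe set had to be paired with exactly 1 such gene, to have a ratio of +NH4NO3 to -N of at least 3 within replicate 1 and within replicate 2, and to have an intensity of at least 100 on both +NH4NO3 arrays. Intensities below 5.16 were raised to that value first. These values chose the genes, so the differences between the groups are given below as a description and are not tested.

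The +NH4NO3 samples were roots of japonica rice (cultivar TNG67) seedlings that had been grown without N until 17 days of age and were then kept for 30 min in solution with 1.43 mM ammonium nitrate. The -N samples were roots of seedlings raised the same way and moved for the same time to solution without N. Each group had 2 biological replicates, each hybridized to its own array. Whether the replicates came from separate cultures is not stated in the labels. Since whole roots were used, a higher intensity can mean more RNA per cell or more cells of a type, which cannot be told apart.

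Nitrate is carried into root cells by high-affinity NRT2 transporters together with the NAR2 partner protein. It is reduced to nitrite by nitrate reductase and to ammonium by nitrite reductase, which draws electrons from ferredoxin. In roots these come from NADPH that the pentose phosphate pathway makes. In plants many genes of these steps, and genes of transcription factors and protein kinases, are known to respond to nitrate within minutes. The symbol LOC followed by a number is the placeholder that NCBI gives to a gene without an agreed symbol, so it says nothing about function. No role is given below to the 41 genes, since the gene tables used here hold none for them.

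The share of probe sets that met these limits was 0.218% for unnamed genes. It was 0.689% among the 3192 probe sets of named genes and 0.0462% among the 34663 probe sets with no gene, and 0.14% over all rice probe sets. With the limits turned round, 0 of 57194 rice probe sets were at least 3-fold lower in +NH4NO3 roots within both replicates with both -N intensities at least 100. All 42 probe sets had both +NH4NO3 intensities above both -N intensities, which held for 7.23% of all rice probe sets. The choice of the genes nearly fixes this count, and nothing is read from it. The median ratio over the 42 was 8.40 in replicate 1 and 5.86 in replicate 2, against 1.06 and 0.997 over the 14606 rice probe sets with both +NH4NO3 intensities at least 100.

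The plot of intensities by array gives the members in the order of the smaller of their ratios.

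**Figure D1:**
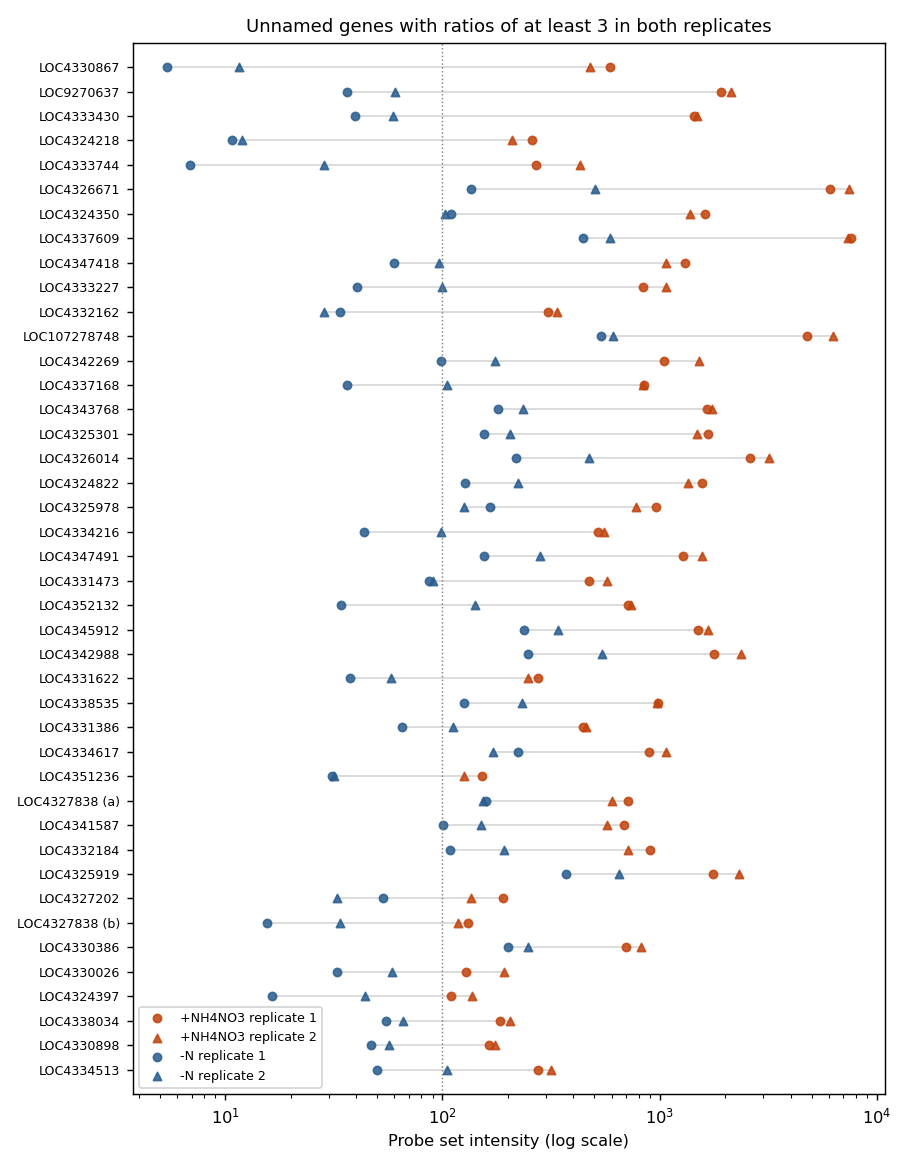
Intensity (log scale) of the 42 member probe sets on each array, with +NH4NO3 in red and -N in blue, circles for replicate 1 and triangles for replicate 2. The dotted line is the minimum of 100 for the +NH4NO3 arrays, rows run from the highest smaller ratio at the top (41.2) to the lowest (3.01), and (a) and (b) are 2 probe sets of LOC4327838. In every row both red points lie to the right of both blue points.

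In 10 genes the ratio was at least 10 within both replicates, and in 3 of these it was at least 20. LOC4330867, on chromosome 2, had intensities of 589.6 and 476 in replicates 1 and 2 of +NH4NO3 and of 5.40 and 11.5 in replicates 1 and 2 of -N. Its -N intensities lay close to the floor of 5.16, so its ratios of 109 and 41.2 are poorly measured, and with a floor of 16 its log2 fold change was 5.05 in place of 6.07 (standard error 0.46, from limma). LOC9270637, on chromosome 1, had 1917 and 2119 in +NH4NO3 roots and 36.5 and 60.6 in -N roots. Here the -N signal was above the floor on both arrays, and the ratios were 52.5 and 35.0. LOC4333430, on chromosome 3, had 1433 and 1481 in +NH4NO3 roots and 39.6 and 58.9 in -N roots, with ratios of 36.2 and 25.1. Its probe set ends in _s_at, a type that can read transcripts of more than 1 gene.

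LOC4324218, on chromosome 1, had intensities of 259 and 209.8 in +NH4NO3 roots and of 10.7 and 11.9 in -N roots. Both of its -N intensities were under 16, as for LOC4330867, while its replicates lay close together in each group. LOC4333744, on chromosome 3, had 269 and 431 in +NH4NO3 roots and 6.87 and 28.4 in -N roots. The -N arrays of this gene differed 4.13-fold, so that its log2 fold change of 4.61 (standard error 0.84) became 3.59 when replicate 1 of -N was left out and 5.63 when replicate 2 of -N was left out. LOC4326671, on chromosome 1, had 6092 and 7416 in +NH4NO3 roots and 135 and 505 in -N roots. Its ratio was 45.0 in replicate 1 and 14.7 in replicate 2. The -N arrays were again the ones that lay apart, and its log2 fold change of 4.68 (standard error 0.75) became 3.74 or 5.63 when replicate 1 or replicate 2 of -N was left out.

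The other 4 genes with a ratio of at least 10 in both replicates had -N intensities well above the floor. LOC4324350, on chromosome 1, had 1618 and 1375 in +NH4NO3 roots and 109 and 103 in -N roots. The standard error of its log2 fold change of 3.81 was 0.17, the smallest among the 42 probe sets. LOC4337609, on chromosome 5, had 7575 and 7362 in +NH4NO3 roots and 445 and 592 in -N roots, with ratios of 17.0 and 12.4. LOC4347418, on chromosome 9, had 1310.4 and 1067 in +NH4NO3 roots and 59.9 and 96.0 in -N roots. LOC4333227, on chromosome 3, had 840.1 and 1066 in +NH4NO3 roots and 40.3 and 99.2 in -N roots. In the last of these the ratio of 20.8 in replicate 1 was close to double that of 10.7 in replicate 2.

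Ratios that were larger in replicate 2 than in replicate 1 were seen in 6 of the 42 probe sets. LOC4332162, on chromosome 3, had 307 and 336 in +NH4NO3 roots and 33.6 and 28.5 in -N roots, with ratios of 9.12 and 11.8. LOC107278748, on chromosome 8, had 4738 and 6255 in +NH4NO3 roots and 535 and 613 in -N roots, with ratios of 8.86 and 10.2. Both genes had close replicates, with standard errors of the log2 fold change of 0.17 and 0.22. LOC4325978, on chromosome 1, had 960.4 and 774 in +NH4NO3 roots and 165 and 126 in -N roots. LOC4331473, on chromosome 3, had 473 and 571 in +NH4NO3 roots and 87.1 and 90.5 in -N roots. In each of these the ratios of the replicates were close, at 5.81 and 6.15 for LOC4325978 and at 5.43 and 6.32 for LOC4331473. LOC4334617, on chromosome 3, had 897 and 1071 in +NH4NO3 roots and 223 and 172 in -N roots, and LOC4327202, on chromosome 1, had 190.0 and 135 in +NH4NO3 roots and 53.2 and 32.8 in -N roots.

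In 10 of the 42 probe sets the ratios of the replicates differed by more than 2 times, and in 2 of them, LOC4326671 and LOC4352132, by more than 3 times. LOC4352132, on chromosome 12, had 712 and 736 in +NH4NO3 roots and 34.2 and 142 in -N roots, with ratios of 20.8 and 5.20. Its log2 fold change of 3.38 (standard error 0.80) became 2.35 when replicate 1 of -N was left out and 4.41 when replicate 2 of -N was left out. LOC4337168, on chromosome 4, had 848 and 836 in +NH4NO3 roots and 36.2 and 104 in -N roots, with ratios of 23.4 and 8.0. In both genes the +NH4NO3 arrays were nearly equal and the -N arrays were not. LOC4334216, on chromosome 3, had 518 and 553 in +NH4NO3 roots and 43.3 and 98.5 in -N roots. LOC4324822, on chromosome 1, had 1559 and 1356 in +NH4NO3 roots and 127 and 222 in -N roots. The ratio was larger in replicate 1 for each of them, at 12.0 against 5.61 in replicate 2 for LOC4334216 and at 12.2 against 6.11 for LOC4324822.

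The remaining genes among the 25 highest by the smaller ratio had ratios between 4.39 and 11.9. LOC4342269, on chromosome 7, had 1042 and 1509 in +NH4NO3 roots and 98.5 and 174 in -N roots. LOC4343768, also on chromosome 7, had 1647 and 1732 in +NH4NO3 roots and 180.0 and 235 in -N roots. LOC4325301, on chromosome 1, had 1664 and 1490.1 in +NH4NO3 roots and 156 and 206 in -N roots. The ratios of these genes lay between 7.25 and 10.7 in both replicates. LOC4326014, on chromosome 1, had 2598 and 3168 in +NH4NO3 roots and 219 and 473 in -N roots, and its probe set ends in _a_at, a type that reads several transcripts of a gene. LOC4347491, on chromosome 9, had 1280 and 1562 in +NH4NO3 roots and 156 and 281 in -N roots. Both had a -N array of replicate 2 that was brighter than that of replicate 1, by 2.16 and 1.81 times. LOC4345912, on chromosome 8, had 1498.5 and 1675 in +NH4NO3 roots and 237 and 340.1 in -N roots. LOC4342988, on chromosome 7, had 1774 and 2378 in +NH4NO3 roots and 247 and 542 in -N roots, with ratios of 7.17 and 4.39.

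The other probe sets had a smaller ratio between 3.01 and 4.25, and 13 of the 42 were below 4. LOC4331622, LOC4338535 and LOC4331386 had ratios of 7.38, 7.80 and 6.78 in replicate 1 and of 4.25, 4.20 and 4.06 in replicate 2. LOC4341587 and LOC4332184 had ratios of 6.85 and 8.38 in replicate 1 and of 3.80 and 3.70 in replicate 2. LOC4330386 differed little between replicates, with 699 and 821 in +NH4NO3 roots and 200.3 and 248 in -N roots, and ratios of 3.49 and 3.31. LOC4330026 had 128 and 193 in +NH4NO3 roots and 32.9 and 58.8 in -N roots. Its lowest +NH4NO3 intensity was 2.18 times its highest -N intensity, the narrowest gap of all 42. In 34 of the 42 the lowest +NH4NO3 intensity was at least 3 times the highest -N intensity.

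At the fold limit the smaller ratios just inside and just outside lay close together. Just inside the fold limit were LOC4334513, LOC4330898 and LOC4338034, with smaller ratios of 3.01, 3.10 and 3.11. Just outside were LOC4331847, LOC4324374 and LOC4327292, with smaller ratios of 2.94, 2.88 and 2.79. LOC4331847 had 420.0 and 268 in +NH4NO3 roots and 24.8 and 91.2 in -N roots, so its ratio of 16.9 in replicate 1 would have been among the higher ones. LOC4327292 had 8250 and 8527 in +NH4NO3 roots and 2955 and 2373 in -N roots. Of the probe sets of unnamed genes, 49.9% had both +NH4NO3 intensities at least 100. This limit removed only 3 that met the fold limit, those of LOC4349339, LOC4340595 and LOC4334054. Their lower +NH4NO3 intensities were 94.7, 82.1 and 28.9, while the members just inside, LOC4324397, LOC4327838 and LOC4351236, had lower +NH4NO3 intensities of 109.7, 118 and 126.

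Only 3 of the 41 genes were paired with more than 1 probe set in the annotation. For the other 38 the difference rested on the 1 probe set paired with the gene. LOC4327838, on chromosome 1, had 2 members. The first of them had intensities of 716 and 602 in +NH4NO3 roots and of 158 and 153 in -N roots, and the second had 131 and 118 in +NH4NO3 roots and 15.6 and 33.8 in -N roots. The ratios of the first, 4.52 and 3.93, and of the second, 8.41 and 3.49, were thus in the same direction. LOC4325919, also on chromosome 1, had 1759 and 2321 in +NH4NO3 roots and 372 and 649 in -N roots on its member probe set. A second probe set of LOC4325919, ending in _x_at, had ratios of 2.37 and 3.45. Another, with no suffix letter, had 208 and 267 in +NH4NO3 roots and 243 and 268 in -N roots, with ratios of 0.856 and 0.999, so the probe sets of this gene did not show the same difference. LOC4351236, on chromosome 12, had 151 and 126 in +NH4NO3 roots and 30.9 and 31.5 in -N roots on its member probe set, with ratios of 4.90 and 4.0. On its other probe set, which ends in _s_at, it had 115 and 138 in +NH4NO3 roots and 93.6 and 115 in -N roots, with ratios of 1.23 and 1.2. A ratio of at least 2 in both replicates was found in 0.372% of all rice probe sets and in 0.639% of those of unnamed genes.

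The size of the difference varied between the replicates in 1 direction more than in the other. The ratio was larger in replicate 1 in 36 of the 42 probe sets. Among all rice probe sets that were at least 2-fold higher in both replicates it was larger in replicate 1 in 72.3%, among those with both +NH4NO3 intensities at least 100 in 61.4%, and over all rice probe sets in 47.8%. Of the 22 probe sets of named genes that met the same limits, it was larger in replicate 1 in 17. The plot of the ratios shows most members below the line of equal ratios.

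**Figure D2:**
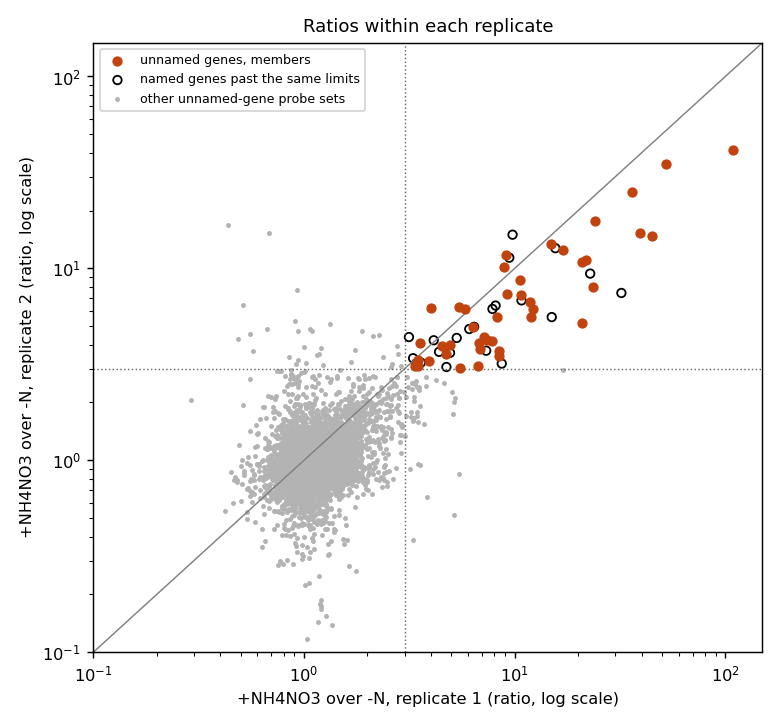
Ratio of +NH4NO3 to -N in replicate 1 (x axis) and replicate 2 (y axis), both on log scales, for the probe sets of unnamed genes with both +NH4NO3 intensities at least 100. Members are red, probe sets of named genes that met the same limits are open circles and other unnamed genes are grey; dotted lines mark a ratio of 3, the solid line marks equal ratios, and 36 of the 42 members lie below it.

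Over the 42 probe sets the median ratio of replicate 2 to replicate 1 was larger between the -N arrays than between the +NH4NO3 arrays. Over all rice probe sets the medians were close, at 1.275 between the -N arrays and 1.282 between the +NH4NO3 arrays. Such a median shows a shift that probe sets share. How far apart the replicates of single probe sets lay over all rice probe sets was not compared. The median ratio of replicate 2 to replicate 1 over the 42 probe sets was 1.06 between the +NH4NO3 arrays, with a range from 0.709 to 1.60, and 1.63 between the -N arrays, with a range from 0.616 to 4.14. Over the 14606 rice probe sets with both +NH4NO3 intensities at least 100 it was 1.28 between the +NH4NO3 arrays and 1.38 between the -N arrays. The +NH4NO3 array of replicate 2 was brighter than that of replicate 1 in 25 of the 42, against 91.7% of those rice probe sets. The -N array of replicate 2 was brighter than that of replicate 1 in 36 of the 42, against 86% of them. The members were chosen on these same intensities, and the 14606 probe sets on their +NH4NO3 intensities only. Nothing is read from the comparison for that reason. The median intensity of all rice probe sets was 17.1 and 25.4 on the +NH4NO3 arrays and 17.8 and 25.2 on the -N arrays, so arrays with the same replicate number shared a scale, and a ratio within a replicate was taken between arrays of similar scale. The part of array scale in the spread of the members was not tested.

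**Figure D3:**
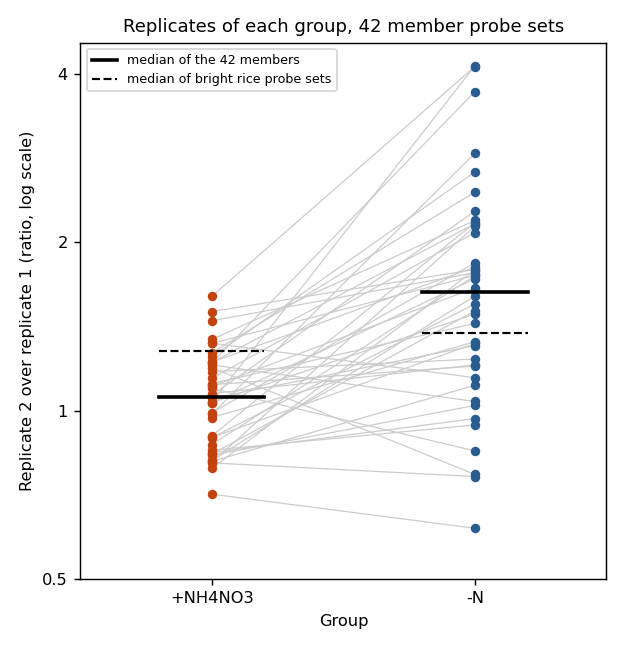
Ratio of replicate 2 to replicate 1 (log scale) of the 42 member probe sets within +NH4NO3 (left) and within -N (right), with a line joining the same probe set. Solid bars are the medians of the members (1.06 and 1.63) and dashed bars those of the rice probe sets with both +NH4NO3 intensities at least 100 (1.28 and 1.38).

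In limma over all rice probe sets, with no term other than group, the share of probe sets at least 2-fold higher in +NH4NO3 roots at an unadjusted p under 0.05 was 0.465%. By the same limits 266 probe sets were higher and 8 lower, but 345 were higher and 413 lower when replicate 1 of -N was left out. All 42 members were among the 266, which the choice of the genes made likely, and no p is given for a member for that reason. With the 2-fold limit kept, 0 of 57194 rice probe sets passed in limma at a Benjamini-Hochberg adjusted p under 0.05. At an unadjusted p under 0.05 there were 274 with the 2-fold limit and 694 with no fold limit. The adjusted count depended on the scaling, since after centring each array on its median 35 rice probe sets passed by the same limits, of which 22 were members. With 2 arrays against 2, a two-sided exact permutation test cannot give a p below 0.333, and none was run. The standard errors of the members' log2 fold changes ran from 0.17 to 0.84, with a median of 0.33.

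All 41 genes were protein-coding in the gene table, and none had a synonym of any kind. By chromosome, 12 lay on chromosome 1 and 11 on chromosome 3, which is 29.3% and 26.8% of the 41, against 14.7% and 13.4% of the 15448 unnamed genes on the array. No member lay on chromosome 10 or 11, which hold 5.09% and 4.93% of the unnamed genes. These shares describe 41 genes and were not tested.

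**Figure D4:**
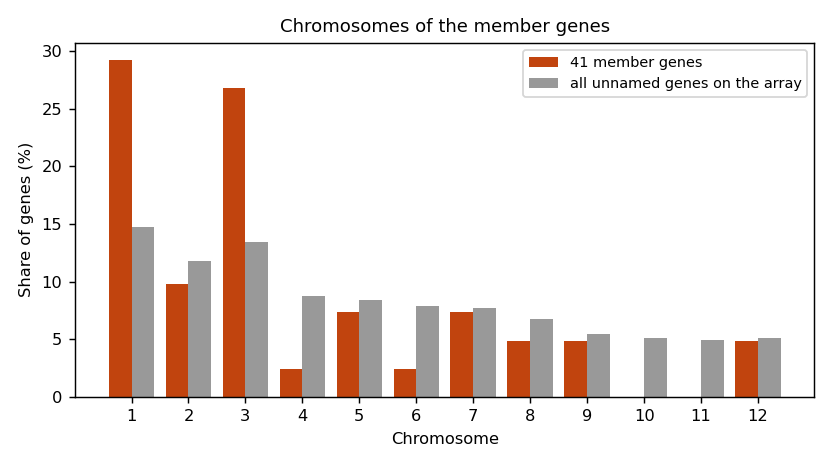
Share of genes on each chromosome (%), for the 41 member genes (red) and for all 15448 unnamed genes on the array (grey). Chromosomes 1 and 3 hold 12 and 11 of the members.

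The flanking genes are those next to a member on either side, in the order of protein-coding genes of assembly ASM3414082v1. Of 82 flanking genes 53 had a probe set, and 0 of the 53 met the same limits. Over the 17905 genes on the array the limits were met by only 41 unnamed and 18 named genes. A count of 0 in 53 therefore says little about how the members are placed. The median ratio of the flanking genes was 1.11, against 1.01 over the 17905 genes. In 1 of the 53 the intensity was at least 2-fold higher in both replicates, against 0.81% of all genes on the array. That gene was LOC4326918, next to LOC4325301, with 248 and 163 in +NH4NO3 roots and 75.9 and 69.6 in -N roots. LOC4330868, next to LOC4330867, had 717 and 963 in +NH4NO3 roots and 257 and 498 in -N roots, and its ratio was 2.79 in replicate 1 and 1.94 in replicate 2. Both neighbours were chosen after their values were seen. LOC4332162 was the closest to another gene that met the limits. Between it and *NSHB1*, which encodes a non-symbiotic hemoglobin, lay 6 genes, and between LOC4332184 and *NSHB1*, on the other side of it, lay 12. Between LOC4330867 and LOC4330898 lay 25 genes, and over the members with such a partner on their chromosome the median distance was 99.5 genes. This distance was not set against that of other genes.

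The same limits were met by 18 named genes, read by 22 probe sets. Among them were *NRT2.2*, a nitrate transporter gene, *NAR2.2*, a *NAR2* gene, and *NIA1*, a nitrate reductase gene. Also among them were *FNR*, the gene of a ferredoxin-NADP reductase, and *6PGDH2* of the pentose phosphate pathway. Transcription factor genes among them were *DREB1A*, *NAC5*, *OsC3H37*, *HSFC1B*, *HAP3F* and *CIGR2*, and protein kinase genes were *CIPK14* and *CIPK16*. The study lists *CIPK14* jointly with *CIPK15* and describes their cDNAs as very similar, so the signal may not be of *CIPK14* alone. The probe set of *NRT2.2* ends in _x_at, and its signal may likewise not be of *NRT2.2* alone. The smaller ratio of the unnamed members ranged from 3.01 to 41.2 with a median of 5.49, and that of the named probe sets from 3.06 to 12.7 with a median of 4.58. Both sets were chosen by the same limits, and the difference between them was not tested. Of the unnamed members, 7 had a smaller ratio above 12.7, the highest among the named probe sets, which was that of *OsC3H37*. It had 1797 and 1698 in +NH4NO3 roots and 115 and 133 in -N roots.

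The 41 genes were set against the genes that the study lists by identifier as examples of nitrate uptake and assimilation, transcription factors, protein kinases and phosphatases. These carry RAP and MSU locus identifiers, and 0 of the 63 locus identifiers occur in the gene tables used here. By published symbol and chromosome, 16 of the 63 were matched to a gene of the tables, and 0 of these 16 were members, since a matched gene has a name. The chromosome number inside each identifier still sets a limit. All listed genes of chromosomes 9, 11 and 12 were matched by symbol, so that LOC4347418 and LOC4347491 of chromosome 9 and LOC4352132 and LOC4351236 of chromosome 12 are not among these 63 listed genes, if both annotations place genes on the same chromosomes. On chromosome 3, 4 listed genes were left for 11 members, and on chromosome 8, 1 was left for 2. By this count at most 29 of the 41 genes can be among these 63 listed genes and at least 12 cannot. The study's longer list of responsive genes was not compared here, so the count says nothing about that list. Which of the 29 are among the 63 could not be told from the identifiers, and LOC4330867 and LOC9270637, on chromosomes 2 and 1, belong to this undecided group.

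For the labelled tissue, 6 of 7 root genes and 2 of 5 green-tissue genes could be matched by symbol. *Lsi1*, a silicon transporter gene of roots, had 8058 and 9089 in +NH4NO3 roots and 7224 and 9869 in -N roots. The other genes of the root list varied. The brightest *PT1* probe set had 1651 and 2257 in +NH4NO3 roots and 1460 and 1901 in -N roots. *Lsi2* had 768 and 721 in +NH4NO3 roots and 596 and 1486 in -N roots. *IRT1* had 299 and 347 in +NH4NO3 roots and 160 and 467 in -N roots. In *NRT2.3* and *NAS1* both +NH4NO3 intensities were above both -N intensities. *NRT2.3*, a nitrate transporter gene, had 2150.5 and 2053 in +NH4NO3 roots and 314 and 1169 in -N roots. Its probe set ends in _x_at. *NAS1*, a nicotianamine synthase gene, had 253 and 332 in +NH4NO3 roots and 29.2 and 104 in -N roots, and it is 1 of the 18 named genes that met the limits. *CAB2R*, a chlorophyll-binding protein gene, also had a bright probe set, with 9343 and 11076 in +NH4NO3 roots and 7870 and 11216 in -N roots. The summed intensity of the brightest probe sets was between 9783 and 14997 for the root list and between 8174 and 12519 for the green-tissue list on the 4 arrays, and in both lists the -N array of replicate 1 was the lowest. *RBCS-C*, a small-subunit gene of Rubisco, had 878 and 873 in +NH4NO3 roots and 304 and 1303 in -N roots. The part of these differences between the -N arrays in the ratios of the members was not tested.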

How the data were processed

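Labelled cRNA of each sample was hybridized to 1 array, and the authors deposited 1 linear intensity per probe set and array. GCOS and RMA are named in the submitters' processing notes, but how the values were normalized is not stated in the sources used here. The values were not scaled further. After leaving out 187 control probe sets of 57381, values below the 5th percentile (5.16) were set to it and log2 was taken. Genes came from the platform's annotation and, for names and gene order only, a RefSeq gene table of assembly ASM3414082v1. Standard errors and background counts came from limma 3.58.1 in R 4.3.3. The fit was also run on simulated arrays with independent noise, which lack the shared deviation of same-numbered arrays. Nothing is read from that run. The figures were drawn with matplotlib 3.10.9. The members, limits and lists were chosen with earlier results of these data known. The text names the 25 members with the highest smaller ratio, those at the limits and those with discordant probe sets. Grouping by product description and a promoter motif search had been planned and were not run, because the tables used here hold neither descriptions nor sequences. Alternatives were other folds, floors, minimums, centring, quantile normalization, probe set types, the replicate number as a block and leaving out arrays. With 2 arrays a group precision is low. The limma p-values set the group difference against the spread between these samples only, which limma estimates partly from all rice probe sets.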

Additional observations from a re-analysis of the deposited data

How the results depend on the processing

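The number of members moved with the fold limit, from 42 probe sets to 104 at a limit of 2. It lay between 29 and 44 under a limit of 4, floors of 16 or none, minimums of 50 or 200, median centring, quantile normalization, all 4 ratios at least 3, and without probe sets ending in _a_at, _s_at or _x_at. With only the brightest probe set of each gene, 40 of the 41 genes were left. Leaving out an array gave between 52 and 89 members. Without a +NH4NO3 array only 1 ratio and 1 minimum had to be met (85 and 89 members), and without a -N array both +NH4NO3 arrays were set against the remaining one. Of the 42, 35 were kept when replicate 1 of -N was left out and 41 when replicate 2 of -N was. In limma the number of rice probe sets at least 2-fold changed at an unadjusted p under 0.05 was 274, with 266 higher and 8 lower, and lay between 194 and 772 without an array in turn. It was 758 when replicate 1 of -N was left out, with 345 higher and 413 lower, and 772 when replicate 2 of -N was left out, with 543 higher and 229 lower. With 1 array left in a group, the spread came from the other group, and the lone array is assumed to vary alike. With the replicate number as a block it was 309, and 42 of the 42 members were called by the same limits, as without the block. Same-numbered arrays deviated together, with a correlation of 0.56 across all rice probe sets and of 0.41 across the members after median centring. The labels give them only a shared number, and 2 pairs are too few to take it as a pairing. Because the members were chosen on the same ratios, their counts are no sign of stability. Between 34 and 42 of them were called without an array in turn, and the share of all rice probe sets called higher was then between 0.278% and 0.949%. After Benjamini-Hochberg adjustment, with the 2-fold limit kept, 0 rice probe sets passed in limma with no term other than group. There were 35 after median centring and 12 with dim probe sets left out. When 16 was added to every intensity and no floor was set, 15 of 42 moved by more than the spread between replicates.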

Other observations

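Probe sets that the annotation pairs with no gene also met the limits, and there were 16 of them, with a median smaller ratio of 4.17. One of these shares the cluster number in its identifier with the member LOC4326671 and had 2277 and 2853 in +NH4NO3 roots and 41.6 and 147 in -N roots, with ratios of 54.8 and 19.4, beside 45.0 and 14.7 for LOC4326671. Another shares its cluster number with LOC4327838, with a smaller ratio of 4.01, and 2 share theirs with *NRT2.2*, with smaller ratios of 7.21 and 5.86. The other 12 share none with a gene in the table. The highest smaller ratio among these 12 was 15.96, in a probe set with 223 and 315 in +NH4NO3 roots and 14.0 and 15.7 in -N roots.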
